A study of Homo sapiens with 6 samples.

Results

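The genes described here encode class I PI3-kinase subunits, AKT kinases and phosphatases that act against them, and they were chosen by symbol: PIK3CA, PIK3CB, PIK3R1, PIK3R2, AKT1, AKT2, PHLPP1, PHLPP2 and INPP5D. Of these 9 genes, 7 had at least 1 probe assigned to a single gene symbol in the array annotation, with 14 probes in all among the 47323 probes of the array. PIK3CA and PIK3R2 are not analysed here. RNA came from U2OS, an established human osteosarcoma cell line, 48 h after transfection. One group (3 arrays) had received a mimic of the microRNA miR-542-3p and the other (3 arrays) a negative control mimic, so both were transfected. A mimic is a short double-stranded RNA made to take the place of the mature microRNA. The level of miR-542-3p in the cells is not analysed here. The labels do not say whether arrays of one group stem from different cultures, and the p-values therefore describe the spread of these samples, which may be technical.

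Class I PI3-kinases pair a catalytic with a regulatory subunit and make the membrane lipid PIP3 when growth factor receptors are engaged. PIP3 brings AKT kinases to the membrane, where upstream kinases activate them, and active AKT promotes cell survival, growth and glucose uptake. The signal is ended at the lipid, by phosphatases such as the INPP5D product SHIP1, and at the kinase, by PHLPP1 and PHLPP2, which remove an activating phosphate from AKT. AKT1 has been reported as a direct target of miR-542-3p in other cells.

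Median intensity ran from 132.2 to 151.4 over the 6 arrays, and between 17848 and 18652 probes were detected on an array, detection meaning a deposited detection p-value under 0.05. Of 9 markers of mesenchymal and osteosarcoma cells, 8 were detected on all 6 arrays, among them VIM and COL1A1. In the test described next, CDH11 (1.89, limma adjusted p = 0.000246) and RUNX2 (0.97, 0.00409) of this list rose on the log2 scale, SPARC fell (-0.48, 0.0406), and the other 5 tested did not pass. A probe entered the test when it was detected on at least 3 of the 6 arrays, and a gene was represented by its brightest such probe. In limma's fit over all rows, 26.4% of 10734 genes were called at an adjusted p under 0.05, with 13.7% lower and 12.7% higher with the mimic. Mimic and control arrays did not overlap for 45% of genes (22.1% lower and 23% higher with the mimic) and for 43.9% of probes. In RNA of a whole culture, fewer cells with a transcript and less of it per cell cannot be told apart.

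The 6 members in the fit were PIK3CB, PIK3R1, AKT1, PHLPP1, PHLPP2 and INPP5D. PHLPP2, PIK3CB and AKT1 were lower with the mimic, INPP5D was higher, and PIK3R1 and PHLPP1 did not pass the test. PIK3CB and PHLPP1 were detected on the control arrays alone and INPP5D on the mimic arrays alone, so these entered the fit only through the group where they were bright, and the share of the 6 that was called is not read against the 26.4% of all genes. AKT2 was detected on 1 array and was not tested. Only AKT1 was bright: its level stood at percentile 78.2 of the genes tested, on normalized log2 intensity, while the other 5 stood between percentile 4.39 and percentile 26.4.

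**Figure D1:**
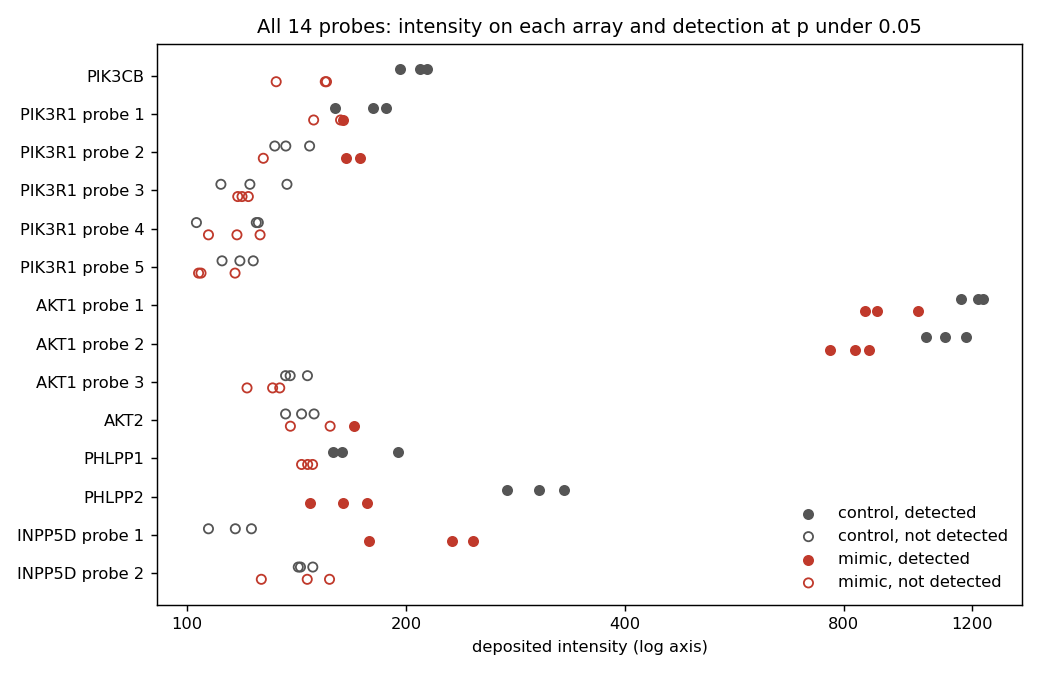
Deposited intensity (log axis) of each of the 14 probes on every array, control arrays in grey and mimic arrays in red, with filled points where the detection p was under 0.05. Probes of a gene are numbered from the brightest, and only the 2 brighter AKT1 probes and PHLPP2 are filled on all 6 arrays.

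Among catalytic subunits, PIK3CB encodes p110-beta, a ubiquitous form that also takes signals from G protein-coupled receptors. Its single probe, ILMN_1763347, read intensities of 213.7, 196.4 and 209.2 on control replicates 1 to 3, each with a deposited detection value of 0.0013. On mimic replicates 1 to 3 it read 155.5, 132.6 and 154.9, with detection p-values of 0.143, 0.165 and 0.0701. All 3 mimic arrays were below all 3 control arrays and within the range of background. On the normalized log2 scale, with the background removed, the control arrays gave 6.58, 6.48 and 6.40 and the mimic arrays 5.25, 5.16 and 5.41. PIK3CB fell by 1.21 ± 0.13 on the log2 scale (SE; limma adjusted p = 0.000574), from 6.49 ± 0.09 to 5.27 ± 0.13 (SD, n = 3 per group). Because no mimic array detected it, the fall is a bound, at least 1.99-fold. For such a bound, each undetected array was raised to the lowest signal detected on it, unless the probe itself read higher, before the group means were compared. It bounds the difference of the group means at this background step and leaves out the spread of the arrays. The drop in log2 value shrank to -0.77 with a background offset of 50 and to -0.46 with no background correction, and the call held in both (highest adjusted p 0.00118). With the same probes kept in the fit, leaving out any 1 array gave log2 differences from -1.30 to -1.15, all called (highest adjusted p 0.00446). Keeping the probes holds PIK3CB in the fit: with the probes refiltered it had no value when a control array was left out. PIK3CB entered the fit through its control arrays alone, so these calls are no separate support for the fall.

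Among regulatory subunits, PIK3R1 encodes p85-alpha and shorter forms, which stabilise the catalytic subunit and hold it inactive until a receptor recruits it. The annotation gave it 5 probes. The brightest, ILMN_1760303, was detected on all 3 control arrays, at intensities of 180.4, 159.9 and 187.8. On the mimic arrays it read 162.6, 164.0 and 149.3 and was detected on replicate 2 alone. The groups overlapped, since control replicate 2 and mimic replicate 2 crossed. Normalized log2 levels were 5.90 ± 0.21 in control and 5.56 ± 0.38 in mimic arrays (SD, n = 3 per group), and the difference of -0.34 did not pass the test (limma adjusted p = 0.28). Its 95% interval, from -0.82 to 0.14, included 0. Without mimic replicate 2 the difference was -0.55 and was called (limma adjusted p = 0.0459).

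The other 4 PIK3R1 probes did not enter the fit. ILMN_1691433 was detected on mimic replicates 1 and 3 and on no control array, with intensities of 136.7, 132.0 and 147.4 in control and 172.9, 127.3 and 165.4 in mimic arrays. It thus leaned the other way from the brightest probe, by 0.45 on the log2 scale, with overlapping groups. The other 3 probes, ILMN_1689057, ILMN_2398235 and ILMN_2289433, were detected on none of the 6 arrays, and their group means differed by -0.03, -0.00 and -0.08.

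AKT1 is the most widely expressed of the AKT kinases. Its brightest probe, ILMN_2388507, was detected on all 6 arrays, with intensities of 1223.4, 1161.3 and 1244.3 on control replicates 1 to 3. The mimic arrays read 1012.7, 890.0 and 855.7. Every mimic array was below every control array. AKT1 fell by 0.40 ± 0.12 on the log2 scale (SE; limma adjusted p = 0.0401), from 10.07 ± 0.01 to 9.67 ± 0.10 (SD, n = 3 per group), which is 1.32-fold. Its 95% interval ran from -0.67 to -0.13.

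A second AKT1 probe, ILMN_2410909, gave a change of nearly the same size. It read 1101.1, 1037.8 and 1179.7 in control and 828.2, 765.6 and 865.7 in mimic arrays, again with no overlap. In the fit over all 18113 probes, where 25.8% of probes with 1 gene were called (13.5% lower and 12.3% higher), it fell by 0.44 ± 0.12 on the log2 scale (SE; limma adjusted p = 0.0329). The third AKT1 probe, ILMN_1748661, was detected on none of the arrays. It read 146.4, 138.6 and 136.6 in control and 131.1, 120.9 and 134.1 in mimic arrays.

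The AKT1 call rests on the full set of arrays. Leaving out any 1 array kept the log2 difference between -0.46 and -0.36 but ended the call, with adjusted p from 0.0646 without mimic replicate 1 to 0.112 without control replicate 1. The second probe kept its call without mimic replicate 3 (adjusted p = 0.0377) and lost it without any other array (highest 0.101). For the brightest probe the call ended with no filter on dim probes as well (adjusted p = 0.0651). Unlike the dim members, AKT1 moved little with the background step, to -0.36 with no correction, where its adjusted p was 0.00749. In size, 36% of genes changed as much as AKT1 or more.

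AKT2, the isoform best known for insulin-driven glucose uptake, was read by 1 probe, ILMN_1743347. It gave 149.5, 143.7 and 136.6 in control and 157.3, 169.9 and 138.7 in mimic arrays. Only mimic replicate 2 was detected, and the groups overlapped. The gene was therefore not measured well enough to compare: with no filter on dim probes the log2 difference was 0.34 ± 0.27 (SE; limma adjusted p = 0.63).

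**Figure D2:**
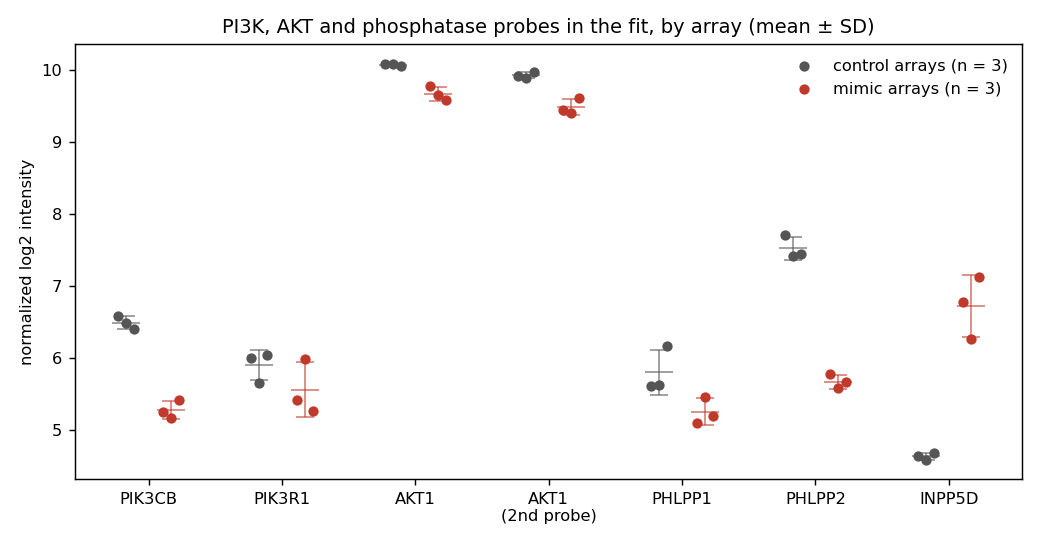
Normalized log2 intensity of the 7 member probes in the fit, with each array as a point and the mean ± SD of the 3 control (grey) and 3 mimic (red) arrays. The groups overlap for PIK3R1 alone, mimic arrays are lower for PIK3CB, both AKT1 probes, PHLPP1 and PHLPP2, and higher for INPP5D.

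PHLPP2 and PHLPP1 are related protein phosphatases that strip the activating phosphate from the AKT tail, with PHLPP2 reported to act on AKT1 and PHLPP1 on AKT2. PHLPP2 was read by 1 probe, ILMN_2083567, which was detected on all 6 arrays. Its intensities were 330.0, 275.5 and 305.2 on control replicates 1 to 3 and 176.6, 147.8 and 164.0 on mimic replicates 1 to 3. Each mimic array lay far below each control array, and the mimic detection p-values of 0.0195, 0.0338 and 0.0299 were close to the limit of detection. On the normalized log2 scale the control arrays gave 7.70, 7.42 and 7.44 and the mimic arrays 5.77, 5.58 and 5.66. PHLPP2 fell by 1.85 ± 0.13 (SE; limma adjusted p = 0.000147), or 3.62-fold, from 7.52 ± 0.16 to 5.67 ± 0.10 (SD, n = 3 per group). The 95% interval of the log2 difference ran from -2.16 to -1.55.

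This was the largest fall among the members measured, and it ranked 81 from the largest fall among 10734 genes. A change of this size or more was found in 1.21% of genes. The call held when any 1 array was left out, with log2 differences from -1.92 to -1.75 and adjusted p of at most 0.00131 with the probes refiltered. Since the mimic arrays were near background, the size depended on the background step: the log2 difference was -1.36 with an offset of 50 and -0.86 with no correction, both called.

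PHLPP1 was also read by 1 probe, ILMN_1814661, and was dimmer. Control replicates 1 to 3 read 163.1, 158.8 and 194.9, all detected, and mimic replicates 1 to 3 read 148.8, 143.7 and 146.5, none detected. Although the groups did not overlap, control replicate 3 stood well above the other control arrays. Normalized log2 levels were 5.80 ± 0.31 in control and 5.25 ± 0.19 in mimic arrays (SD, n = 3 per group), and the difference of -0.55 ± 0.18 (SE) did not pass the test (limma adjusted p = 0.0647). Its 95% interval, which is not adjusted for the number of rows tested, ran from -0.97 to -0.13. As a bound on the group means alone, without the spread of the arrays, PHLPP1 was at least 1.24-fold lower. It was called with array weights (-0.59, adjusted p = 0.027). Without mimic replicate 2 the difference was -0.65, called with the probes refiltered (adjusted p = 0.0477) and not called with the same probes kept (0.0514). Without control replicate 3, with the same probes kept in the fit, it was -0.37 (adjusted p = 0.165). No difference between the changes of PHLPP1 and PHLPP2 was tested.

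INPP5D encodes SHIP1, a lipid phosphatase that removes a phosphate from PIP3 and is best known from blood cells. Its brighter probe, ILMN_1744212, read 116.5, 107.0 and 122.6 on control replicates 1 to 3, with detection p-values from 0.714 to 0.866. On mimic replicates 1 to 3 it read 231.3, 178.0 and 247.3 and was detected each time, at p-values up to 0.0013. All mimic arrays were above all control arrays, which were at background. On the normalized log2 scale the control arrays gave 4.64, 4.58 and 4.68 and the mimic arrays 6.77, 6.27 and 7.12.

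INPP5D rose by 2.09 ± 0.21 on the log2 scale (SE; limma adjusted p = 0.000469), from 4.63 ± 0.05 to 6.72 ± 0.43 (SD, n = 3 per group), which as a bound is at least 2.41-fold higher. The difference was 1.25 with a background offset of 50 and 0.95 with no correction, and was called in both. With the same probes kept in the fit, leaving out any 1 array gave 1.90 to 2.31, with adjusted p of at most 0.00338. With the probes refiltered, INPP5D had no value when a mimic array was left out. It entered the fit through its mimic arrays alone, so these calls are no separate support for the rise. The same transcript had a second probe, ILMN_1749920, which showed no such rise: it read 143.2, 142.2 and 148.9 in control and 146.3, 126.5 and 157.0 in mimic arrays and was detected on none. The rise is thus the reading of 1 of 2 probes.

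Leukocyte markers were read beside INPP5D because of its known place in blood cells. Of 8 with a probe, none was detected on all 6 arrays, and SPI1, CD3E and HCLS1 were detected on none. PTPRC was detected on 1 mimic array and ITGAM on 1 control array. CD79A and CD14 were each detected on 1 control and 1 mimic array. The summed intensity of the 8 brightest probes ran from 1110.9 to 1196.5 in control and from 987.9 to 1221.4 in mimic arrays, so the groups overlapped. CSF1R, the marker that entered the fit, was detected on 3 control and 2 mimic arrays. It differed by -0.21 (limma adjusted p = 0.472). Of 5 epithelial markers, EPCAM was detected on all 6 arrays and fell by 1.32 on the log2 scale (limma adjusted p = 0.0022), while CDH1, KRT5 and CLDN4 were detected on none. Summed over these 5, intensity ran from 789.3 to 902.7 in control and from 680.2 to 695.3 in mimic arrays. Of 5 endothelial markers, CDH5 and KDR were detected on none, and VWF was detected on the 3 control arrays and on no mimic array. The part of other cell types in the members' values was not tested.

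**Figure D3:**
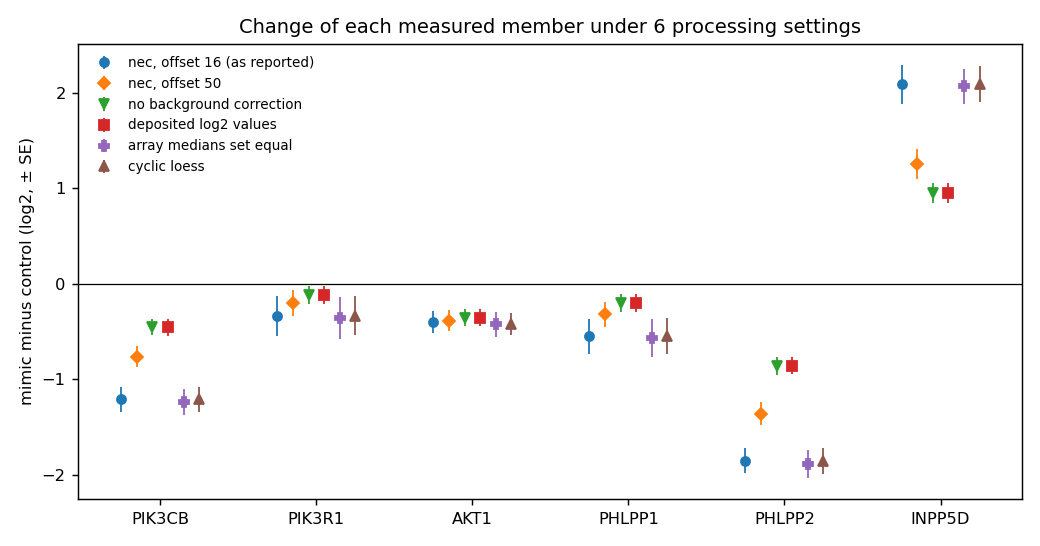
Log2 difference, mimic minus control, with its SE, for the 6 members in the fit under 6 processing settings. AKT1 stays near -0.4 in all of them, while PIK3CB, PHLPP2 and INPP5D keep their direction. These 3 shrink toward 0 with an offset of 50, with no background correction and with the deposited log2 values.

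Over the 6 arrays the called members tracked each other, as each separates the same groups of arrays. PIK3CB and PHLPP2 correlated at Pearson r = 0.991, AKT1 and PHLPP2 at 0.969, and INPP5D and PHLPP2 at -0.959 in normalized log2 intensity. The gene rows most like PHLPP2 were ENPP4 (r = 0.998) and TADA2B (0.997), and those most like PIK3CB were ARF1 (0.997) and RIT1 (0.996). TMBIM1 (0.998) and ARPC5 (0.998) were most like AKT1. TCP11L1 (0.9996) and PANK1 (0.9994) were most like INPP5D. With 6 arrays in 2 groups such values are common: between 384 and 649 genes reached r above 0.95 with each of these 4 members.

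Beyond the members, 73 genes of the same pathway were listed by role, of which 68 had a probe and 54 were measured. With the mimic 9 fell and 5 rose, a share of 25.9% called against 26.4% of all genes. Their median log2 difference was 0.16, against 0.02 over all genes tested. The list as a whole thus changed about as often as other genes.

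Among other catalytic and regulatory PI3-kinase genes, 1 of 6 measured changed. PIK3C2B, a class II PI3-kinase, fell by 0.52 ± 0.12 on the log2 scale (SE; limma adjusted p = 0.0183), from 6.35 ± 0.11 to 5.83 ± 0.08 (SD, n = 3 per group). Its difference was -0.20 with no background correction, where the call ended (adjusted p = 0.108). It also ended when control replicate 3 or mimic replicate 3 was dropped (highest adjusted p 0.0612) and with a robust intensity-dependent variance (0.0818). PIK3CD, which encodes p110-delta, differed by 0.24. PIK3C2A differed by -0.19 on its brighter probe and by 0.13 on its dimmer probe. PIK3R4, a partner of the class III enzyme, differed by 0.16 and PIK3IP1, an inhibitor of the catalytic subunit, by 0.40, and these 4 did not pass.

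Among other phosphoinositide phosphatases, 2 of 4 measured rose and none fell. INPP5E, a lipid phosphatase of the primary cilium, rose by 0.62 ± 0.15 (SE; limma adjusted p = 0.0213), from 6.40 ± 0.12 to 7.02 ± 0.23 (SD, n = 3 per group). INPP4B, which acts on the lipid one step after SHIP1, rose by 0.42 ± 0.13 (adjusted p = 0.0462). The call of INPP5E ended when replicate 1 or 3 of either group was dropped (highest adjusted p 0.0733), and its value was 0.30 with no background correction. That of INPP4B held when mimic replicate 2 was dropped and ended for each other array (highest 0.124). It also ended with array medians set equal (0.0691), with cyclic loess (0.0567) and with no filter on dim probes (0.0817). INPPL1, which encodes the related SHIP2, differed by 0.15 and did not pass.

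Among activators and inhibitors of AKT, listed together with the related SGK kinases, 2 of 7 measured genes fell and 1 rose. ILK, the integrin-linked kinase, fell by 1.91 ± 0.12 (SE; limma adjusted p = 8.29e-05) and by 1.73 on its dimmer probe. SGK3, a kinase related to AKT that also answers to PI3-kinase, fell by 1.68 ± 0.24 (adjusted p = 0.00197) and by 0.75 on its dimmer probe. SGK3 was detected on 1 of 3 mimic arrays, and its difference was -0.71 with no background correction. PHLDA3, a p53-induced protein that competes with AKT for membrane lipid, rose by 1.33 ± 0.18 (adjusted p = 0.00155), from 8.57 ± 0.18 to 9.90 ± 0.29 (SD, n = 3 per group). PDPK1, the kinase that activates AKT at the membrane, differed by -0.06 on its brighter probe and by 0.07 on its dimmer probe. Neither probe passed.

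PP2A is the other main phosphatase of AKT, and 2 of its 9 measured subunit genes fell. PPP2R1A, the main scaffold subunit, fell by 1.61 ± 0.12 (SE; limma adjusted p = 0.000162), from 11.74 ± 0.02 to 10.13 ± 0.10 (SD, n = 3 per group). PPP2R5A, a regulatory subunit, fell by 0.48 ± 0.14 (adjusted p = 0.0422). That call held when mimic replicate 2 was dropped, and ended for each other array (highest adjusted p 0.135) and with no filter on dim probes (0.081). The second scaffold gene, PPP2R1B, differed by -0.57 on its brighter probe, which did not pass (adjusted p = 0.0552), and by 0.34 on its dimmer probe. PPP2R1B was called without mimic replicate 2 (-0.74, adjusted p = 0.0125) and in 8 of 18 alternatives in all. With no background correction it was -0.37, and as a mean of its probes -0.11.

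In the TSC and mTOR arm, 2 of 17 measured genes fell and 1 rose. EIF4EBP2, a repressor of cap-dependent translation that mTOR inactivates, fell by 0.95 ± 0.17 (SE; limma adjusted p = 0.00621). RPS6KB1, the S6 kinase, fell by 0.70 ± 0.14 (adjusted p = 0.00935). DEPTOR, an inhibitor of mTOR, was detected on the mimic arrays alone and rose by 0.64 ± 0.19 (adjusted p = 0.0401). As a bound on the group means alone, DEPTOR rose at least 1.35-fold. Its difference was 0.23 with no background correction, where the call ended (adjusted p = 0.0843). It also ended with an offset of 50, with no filter on dim probes, with a robust variance and without any 1 control array (highest 0.106), and no value was had without a mimic array. MTOR itself differed by 0.18 and did not pass.

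Among other AKT substrates, FOXO4, a transcription factor that AKT keeps out of the nucleus, fell by 1.14 ± 0.17 (SE; limma adjusted p = 0.00268), and its difference was -0.70 with no background correction. TBC1D4, which AKT phosphorylates to release glucose transporters to the surface, rose by 0.55 ± 0.17 (adjusted p = 0.0476), a call that ended when any 1 array was left out (highest 0.126). It also ended with array medians set equal, with cyclic loess and with no filter on dim probes (highest 0.101). FOXO1 differed by 0.87 and did not pass (adjusted p = 0.0858), but was called in 7 of 18 alternatives, among them the one without mimic replicate 2 (1.22, adjusted p = 0.00906). The other 4 of the 7 measured substrates did not pass.

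Of 4 measured genes for insulin and IGF receptors and their adaptors, GAB2, an adaptor that recruits p85, fell by 0.83 ± 0.21 (SE; limma adjusted p = 0.0219), and none rose. The call was lost when control replicate 1 or 3, or mimic replicate 1 or 2, was dropped (highest adjusted p 0.0726) and with no filter on dim probes (0.0519), and the difference was -0.48 with no background correction. IRS1, the main insulin receptor substrate, differed by 0.40 (adjusted p = 0.0748) and the receptor gene IGF1R by 0.26, and neither passed. IRS1 was called in 6 of 18 alternatives.

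**Figure D4:**
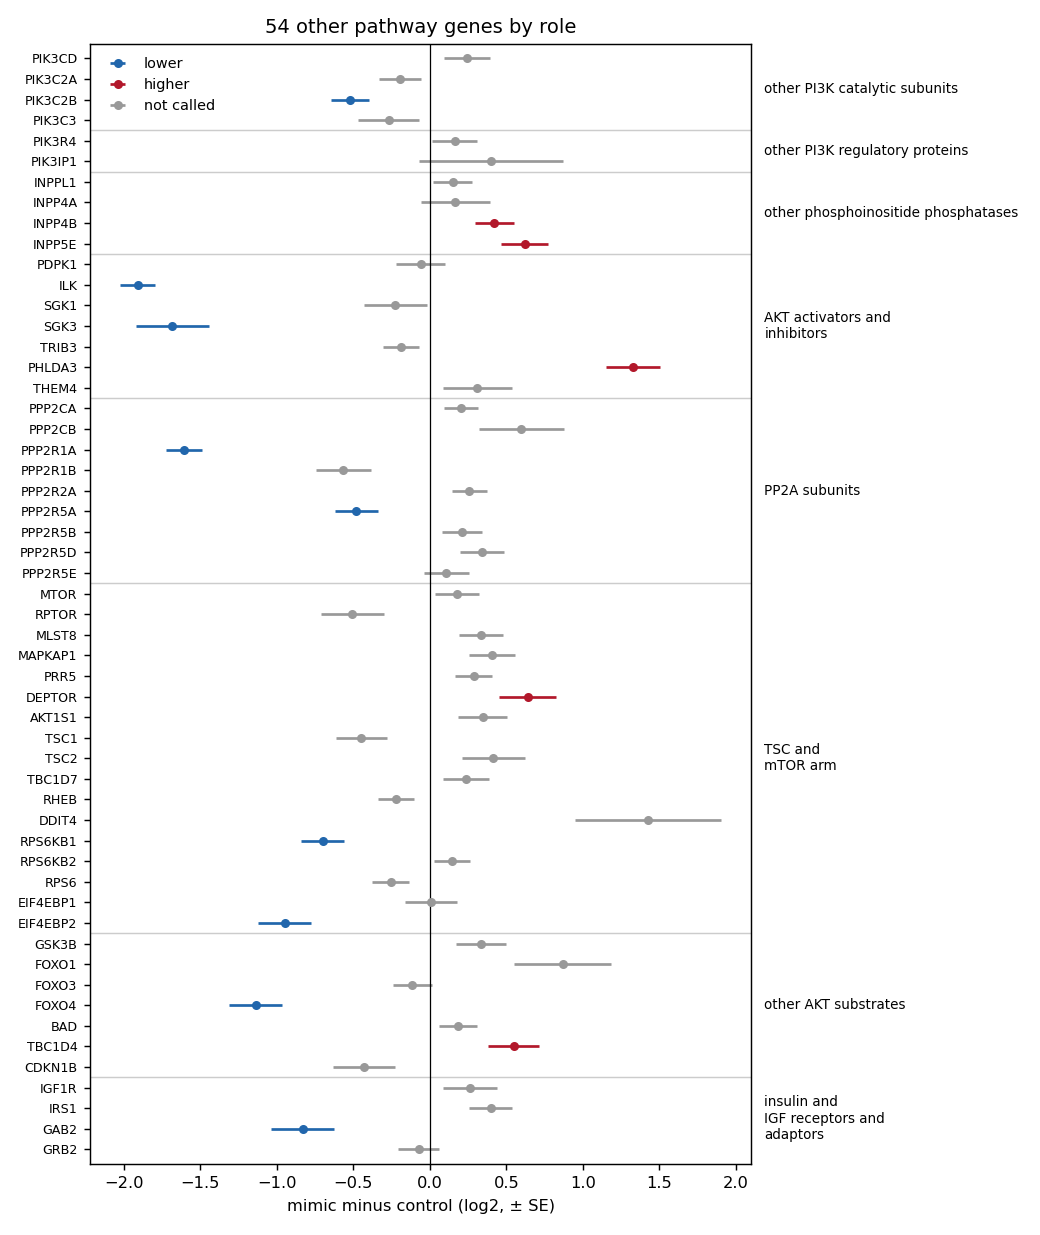
Log2 difference, mimic minus control, with its SE, for the 54 measured pathway genes that are not members, grouped by role, with called genes in blue (lower, 9) or red (higher, 5). ILK, SGK3 and PPP2R1A lie farthest to the left among called genes and PHLDA3 farthest to the right among them.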

How the data were processed

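Per the file headers, the authors' main table holds, for every probe and array, an intensity that was not normalized and its detection p-value. A second deposited table holds log2 values, used as an alternative. How those were made, the scanner software and the slides: not given in the sources used here.

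The nec function of limma 3.58.1 (R 4.3.3; offset 16, negative controls inferred from detection p-values) removed background, and quantile normalization and log2 followed. Probes detected on at least 3 of 6 arrays gave 14775 rows, 1 probe a gene (the brightest), with 10734 genes. Groups were compared with lmFit and eBayes, without covariates, with Benjamini-Hochberg adjustment over all rows. Further probes of a gene come from a fit over all 18113 such probes. The number of arrays limits the precision.

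Probes were named from GEO's annotation of the array, checked by Entrez identifier against RefSeq (GRCh38.p14). The members, the pathway list and the naming rule were chosen with earlier results of these data known. The text names all members and, per role, up to 3 pathway genes by smallest adjusted p, with PDPK1 and MTOR in any case, and per called member the 2 genes of highest correlation.

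Alternatives were other background steps, normalizations, filters, probe rules, variance models, array weights, a threshold of 0.01, the replicate number as a block and each array left out. Leaving out arrays with all probes kept was added after seeing the data.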

Additional observations from a re-analysis of the deposited data

How the results depend on the processing

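The falls of PIK3CB and PHLPP2 and the rise of INPP5D kept their direction and call under every alternative that gave a value. PIK3CB and PHLPP1 had none without a control array, and INPP5D none without a mimic array, unless all probes were kept. The mean of probes could not move PIK3CB, PHLPP2 or INPP5D, as each had only 1 probe in the fit. The second INPP5D probe, which showed no rise, passed no detection filter and so did not enter that mean. Detection on all 6 arrays removed PIK3CB, PIK3R1, PHLPP1 and INPP5D. It left 2 member genes lower and no member higher (0 genes, 0 probes). Leaving out 1 array gave 1 to 4 member genes and 1 to 4 member probes lower and 0 to 1 higher of each. With all probes kept these were 2 to 3 lower and 1 higher of each. At an adjusted p under 0.01, 2 member probes were lower, 1 pathway gene was higher and 1430 genes changed in all. With 1 array left out, at an adjusted p under 0.05, that total ran from 1859 without control replicate 1 to 2865 without mimic replicate 2. The total over all genes is given in brackets beside the next counts. The pathway genes called higher numbered 8 with no background correction (3495 genes in all) and 8 with the deposited log2 values (3491). They numbered 3 with array medians set equal (2632) and 3 with cyclic loess (2824). With no filter on dim probes they were 2 (2159, or 10.8% of genes), and with array weights 11 (3839). Without 1 array they were 1 to 6. The lower ones ran from 6 to 9 without 1 array. Whether the replicate numbers pair the arrays cannot be told from these values, and the main fit left them out. Deviations of same-numbered arrays correlated at 0.02, 0.12 and 0.13, and those of differently numbered arrays at -0.16 to 0.05. Control replicates 2 and 3 correlated best with their own number, and control replicate 1 did not. With the replicate block 2658 genes were called, AKT1 lost its call (adjusted p = 0.0621), as did INPP4B (0.0743) and TBC1D4 (0.0895), and FOXO1 was called (0.0137). The causes of these changes were not tested. Signal near background limits all members but AKT1.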

Other observations

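Of the 68 listed pathway genes with a probe, 14 were not measured. PIK3R3, PIK3R5, PIK3R6, PIK3C2G, PPP2R5C, RICTOR, EIF4E, GSK3A and INSR were detected on none of the 6 arrays by any probe, and IRS2, GAB1, TCL1A and INPP5J on at most 1. PIK3CG was detected on at most 2. EIF4E and GSK3A encode a cap-binding protein and a kinase that most cells use, so a probe that is not detected does not show that a transcript is missing.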
